A study of Mus musculus with 2 samples.

Results

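The nuclear factor I (NFI) genes *Nfia*, *Nfib*, *Nfic* and *Nfix* were followed through the Mbnl2 HITS-CLIP tags of quadriceps muscle. In HITS-CLIP, UV light links a protein to RNA in frozen tissue, RNase A trims the RNA, and the pieces that come down with an antibody to the protein are read as short tags. The members are all 4 NFI genes among the 22367 protein-coding genes outside chromosome M in the mm9 GENCODE vM1 annotation, and a tag was counted where it overlapped the gene on its own strand. The groups were WT and *Mbnl1* KO (Mbnl1-/-) mice labelled C57BL/6, 15 to 16 weeks old, 3 of each, and Mbnl2 was precipitated from both with mAb 3B4 after RNase A at 38.6 or 0.0386 U/ml. The study states that its knockout allele yields no detectable Mbnl1 protein. In the study's methods this allele is named for the loss of *Mbnl1* exon 3 (an isoform knockout), and it is not restricted to a cell type. Those methods give a mixed C57BL/129 background for the crosses that made compound knockouts, and whether the mice used here shared it is not given in the sources used here. The 3 mice of a genotype are merged in 1 table, so the spread between mice is unknown and the genotypes were not tested against each other. There were 343554 unique tags from WT and 476543 from *Mbnl1* KO muscle. Tags were scaled to all tags of the genotype on the usual CPM scale. Each *Mbnl1* KO/WT ratio divides these scaled values, and its 95% Clopper-Pearson interval covers counting error and compares these libraries, not the genotypes.

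NFI proteins are transcription factors that bind DNA as dimers through a conserved N-terminal domain, while their C-terminal regions differ between paralogues and between splice forms. In skeletal muscle *Nfix* is known for driving the switch from embryonic to fetal myogenesis, *Nfia* and *Nfib* are best known from glial, brain and lung development, and *Nfic* from tooth root formation. Muscleblind-like proteins bind RNA at a GC flanked by pyrimidines. In introns near alternative exons they set exon inclusion, and in 3′UTRs they are linked to the localisation and decay of the mRNA. *Nfix* is also among the transcripts whose splicing the study assayed, and where Mbnl2 tags lie on it is the question here. Which *Nfix* exon that assay amplified is not given in the sources used here.

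Mbnl2 tags were found over all 4 genes in both genotypes, 197 of them from WT and 550 from *Mbnl1* KO muscle. Most exonic tags lay in the 3′UTRs, and the alternative exons and their flanks held almost none. At the density of the introns as a whole, only 0.872 WT and 1.75 *Mbnl1* KO tags would fall in those flanks. On *Nfix* most 3′UTR tags sat within the final 500 nt before the annotated end of the transcript, in both genotypes. Scaled to the tables, the family had 573 CPM in WT and 1154 in *Mbnl1* KO muscle, a ratio of 2.01 (interval 1.71 to 2.38), and the median protein-coding gene had 1.74. The family ratio was 1.28 (1.01 to 1.63) with tags of at least 2 reads that were not of low complexity, and 5.22 (3.8 to 7.32) with tags of at least 30 nt.

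The 30 bases around the summit of the main tag clusters are shown first, because these clusters held the most Mbnl2 tags of each gene. A cluster is a run of overlapping tags on 1 strand, pooled over both genotypes, and clusters with at least 10 tags are given, with the top clusters of *Nfia*, which had 7 tags each. The sequences are from the mm9 genome, 5′ to 3′ on the strand of the gene, and capitals mark the motifs, which are GC with T or C before it and T or C after it.
*Nfix* end cluster (chr8:87228666-87228695, minus strand): accatcttTGCCtgactctcttcggcttct
*Nfix* cluster 235 nt before the end (chr8:87228915-87228944, minus strand): tggatttggtgTGCTtcccccttagcgtcc
*Nfix* cluster between them (chr8:87228750-87228779, minus strand): cggaatgcaagtaggcagccagcccgtctg
*Nfic* cluster 1271 nt before the end (chr10:80860213-80860242, minus strand): cagttaattccTGCTgCGCTGCCcacagtg
*Nfic* cluster 119 nt before the end (chr10:80859087-80859116, minus strand): gctttttgttttgttttgtggaccCGCCtg
*Nfib* proximal cluster (chr4:81940941-81940970, minus strand): tatagtTGCCGCTtaaaaattgtaatcgac
*Nfib* distal cluster (chr4:81937877-81937906, minus strand): aCGCTacagtctTGCTggcagataggcccc
*Nfia* middle cluster (chr4:97782793-97782822, plus strand): tttTGCTGCTtcttcccttctggtttctgg
*Nfia* distal cluster (chr4:97784294-97784323, plus strand): tctctctctcTGCTctctctctctctctaa
All 9 lie in annotated 3′UTRs. They were chosen by tag number, and smaller clusters that are not shown include some without a motif, such as *Nfix* clusters with 9 and 8 tags.

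*Nfix* (ENSMUSG00000001911.9, chromosome 8 from 87223775 to 87324243, minus strand) was covered by 54 tags in WT and by 172 in *Mbnl1* KO muscle, or 157 and 361 CPM. The *Mbnl1* KO table was higher by a ratio of 2.30 (1.68 to 3.18). *Nfia* (ENSMUSG00000028565.11, chromosome 4 from 97439425 to 97868605, plus strand) had 58 tags from WT and 153 from *Mbnl1* KO muscle, at a ratio of 1.90 (1.40 to 2.62). The other paralogue on chromosome 4, *Nfib* (ENSMUSG00000008575.10, from 81936077 to 82351654, minus strand), had 60 and 151 tags and a ratio of 1.81 (1.34 to 2.49). *Nfic* (ENSMUSG00000055053.10, chromosome 10 from 80858931 to 80893750, minus strand) had the fewest tags, 25 in WT and 74 in *Mbnl1* KO muscle, and a ratio of 2.13 (1.34 to 3.51).

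All 4 genes were thus higher in the *Mbnl1* KO table, as were 79.9% of the 3877 protein-coding genes with at least 20 pooled tags, and 2 of them, *Nfic* and *Nfix*, were past 2-fold. Of the 3877 genes 41.5% were past 2-fold higher, so a count of 2 in 4 is near the background. The interval lay above 1 at all 4 members and at 38.4% of these genes (3.84% lay below 1), where the width of an interval depends on the number of tags. With tags of at least 2 reads alone it included 1 at *Nfia* (1.37, 0.897 to 2.17), *Nfib* (1.4, 0.884 to 2.30) and *Nfic* (1.62, 0.852 to 3.33) but not at *Nfix* (1.61, 1.06 to 2.53), and once single-base tags were removed too it included 1 at all 4. A ratio as high as that of *Nfix* or higher was found at 33.3% of the genes, with 38.3% for *Nfic*, 44.7% for *Nfia* and 47.0% for *Nfib*. Between the members the ratios could not be separated. Over the 6 pairs, the widest contrast was *Nfix* against *Nfib*, at 1.27 (0.807 to 1.99).

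**Figure D1:**
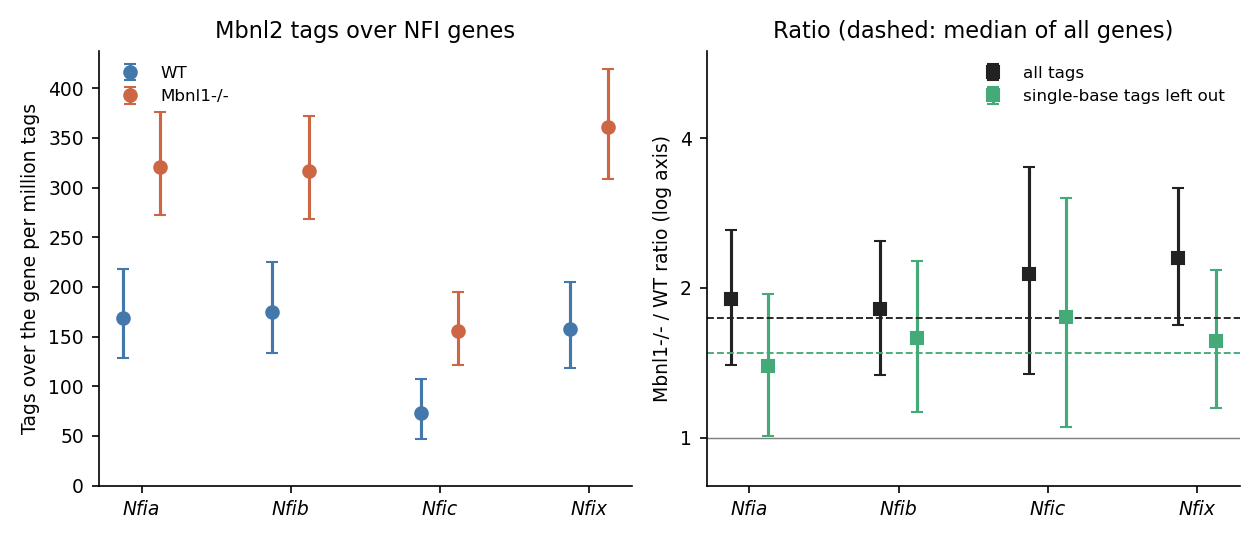
Left, Mbnl2 tags over each gene on the CPM scale in WT and *Mbnl1* KO (Mbnl1-/-) muscle, with exact Poisson intervals. Right, the *Mbnl1* KO/WT ratio with its Clopper-Pearson interval on a log axis, for all tags and after removal of single-base tags; the dashed lines are the medians of all protein-coding genes with at least 20 tags, 1.74 and 1.48. All 4 genes are above 1 in both settings, and their intervals include the dashed lines.

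The scale of these ratios rests in part on tags of low complexity. Tags whose reference sequence is at least 70% 1 base, called single-base tags here, made up 43.3% of the WT table and 16.8% of the *Mbnl1* KO table. Over the NFI genes they were fewer, 26 of 197 WT tags (13.2%) and 15 of 550 *Mbnl1* KO tags (2.73%), and *Nfix* had 0 in both. With single-base tags left out of tags and totals, the ratio was 1.39 (1.01 to 1.95) at *Nfia*, 1.59 (1.13 to 2.27) at *Nfib*, 1.75 (1.05 to 3.03) at *Nfic* and 1.57 (1.15 to 2.17) at *Nfix*. The interval stayed above 1 at all 4, beside 26.3% of genes (2% lay below 1). None of the 4 was then past 2-fold, against 28.9% of 3296 genes (2.82% were past 2-fold lower), and the median gene was at 1.48. With the tables scaled so that the median gene has a ratio of 1, the 4 genes stayed above 1, from 1.05 at *Nfib* to 1.32 at *Nfix*, with intervals that include 1. RNA levels were not analysed here, so a change in NFI RNA, in the number of cells of a type and in Mbnl2 per transcript cannot be told apart. The study reported more Mbnl2 protein and mRNA in *Mbnl1* KO muscle, and how far that rise enters these ratios was not tested.

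The tags were then divided by where they fell in each gene, and levels were compared per length, in CPM per kb. In the 3′UTR *Nfix*, with 3954 nt, had 39 tags in WT and 153 in *Mbnl1* KO muscle, or 28.7 (20.4 to 39.2) and 81.2 (68.8 to 95.1) CPM per kb. *Nfic* followed with 19 and 68 tags, or 11.3 (6.80 to 17.6) and 29.1 (22.6 to 36.9). *Nfib* had 11 and 55 tags, or 4.92 (2.45 to 8.80) and 17.7 (13.4 to 23.1), and *Nfia* 17 and 46, or 6.51 (3.79 to 10.4) and 12.7 (9.30 to 17.0). In the *Mbnl1* KO table *Nfix* stood above the other members and *Nfic* above *Nfia*, with intervals that did not overlap. The intervals of *Nfib* overlapped those of its neighbours in this order, and in WT *Nfia*, *Nfib* and *Nfic* were not separated.

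The 3′UTR had an interval above 1 at each member, beside 77.7% of the 861 3′UTRs with at least 20 tags, with a ratio of 1.95 (1.10 to 3.63) at *Nfia*, 3.6 (1.87 to 7.64) at *Nfib*, 2.58 (1.53 to 4.55) at *Nfic* and 2.83 (1.98 to 4.13) at *Nfix*. With single-base tags left out, the interval of *Nfia* included 1 (1.72, 0.890 to 3.59), and those of *Nfib* (2.46, 1.27 to 5.21), *Nfic* (1.71, 1.01 to 3.02) and *Nfix* (1.93, 1.35 to 2.82) lay above it, beside 49.6% of 856 3′UTRs. The tags of all protein-coding 3′UTRs together gave a ratio of 2.93 (2.88 to 2.99), and 2.08 (2.04 to 2.12) with single-base tags left out. Of the 861 3′UTRs 99.2% had a ratio above 1, with a median of 3.27. With single-base tags left out, 96.1% of 856 did, with a median of 2.26. Among the members *Nfib* alone was above the median, in both settings. None of the 6 pairs of 3′UTRs could be separated, and the widest contrast was *Nfib* against *Nfia*, at 1.85 (0.728 to 4.82).

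Among the 2887 protein-coding genes with at least 5 pooled tags in the 3′UTR, the median density was 3.20 CPM per kb in WT and 9.93 in *Mbnl1* KO muscle. In WT 6.20% of these 3′UTRs were at or above the density of *Nfix*, and in *Mbnl1* KO muscle 6.65% were. For *Nfic* these shares were 18% and 21.2%, for *Nfia* 30.1% and 42.5%, and for *Nfib* 37.0% and 32.2%. The place of *Nfix* near the top of the 3′UTRs was therefore much the same in both tables.

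**Figure D2:**
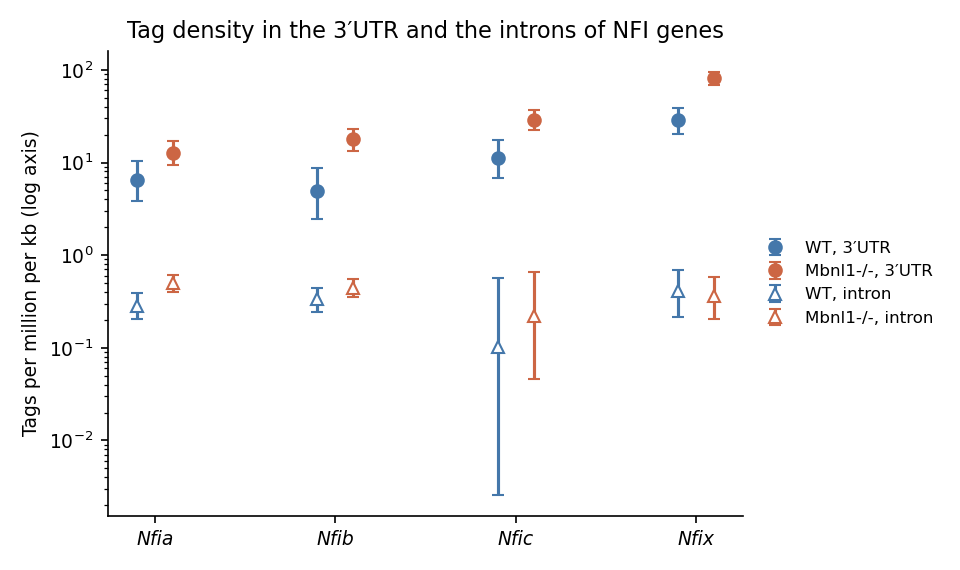
Tags as CPM per kb, on a log axis, in the 3′UTR (filled circles) and in all introns (open triangles) of each NFI gene in WT and *Mbnl1* KO (Mbnl1-/-) muscle, with exact Poisson intervals. The 3′UTR of *Nfix* is the densest in both tables, at 28.7 and 81.2, and the introns of all 4 genes lie below 0.5.

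The introns held many tags at low density. Over the family 101 WT and 203 *Mbnl1* KO tags fell in 940249 nt of intron, 0.313 and 0.453 CPM per kb, while the 22962 nt of 3′UTR had 86 and 322 tags, 10.9 and 29.4 CPM per kb. Most intron tags came from the long genes, with 41 WT and 99 *Mbnl1* KO tags at *Nfia* and 46 and 85 at *Nfib*, against 13 and 16 at *Nfix* and 1 and 3 at *Nfic*. Within *Nfia*, intron 2 of transcript Nfia-001 (172760 nt) had 36 and 74 of them. Intron 2 of Nfib-001 (114576 nt) had 20 and 48, or 0.508 and 0.879 CPM per kb, beside 0.607 and 0.899 in the *Nfia* intron.

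All introns of *Nfix* together gave a ratio of 0.887 (0.400 to 2.01), beside 1.74 (1.2 to 2.57) at *Nfia* and 1.33 (0.920 to 1.95) at *Nfib*, and these intervals overlap. Without single-base tags *Nfia* was at 1.19 (0.817 to 1.77), which includes 1.

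As a share of all tags over the family, the 3′UTRs took 43.7% in WT (36.6 to 50.9) and 58.5% in *Mbnl1* KO muscle (54.3 to 62.7), and the introns took 51.3% and 36.9%. The ratio was 2.70 (2.12 to 3.47) in the 3′UTRs and 1.45 (1.14 to 1.86) in the introns, where it turned to 0.835 (0.654 to 1.07) with the median gene set to 1. Its interval also included 1 without single-base tags (1.12, 0.866 to 1.47) and with tags of at least 2 reads (1.27, 0.864 to 1.91). The quotient of these ratios does not depend on how the tables are scaled, and it was 1.86 (1.31 to 2.65). A quotient of 2.37 (2.33 to 2.42) was found over all protein-coding genes, and after removal of single-base tags it was 1.71 (1.18 to 2.47) at the family and 1.87 (1.83 to 1.91) over all genes, so the move toward 3′UTRs is not particular to the NFI genes. With tags of at least 2 reads alone, the family's quotient was 1.28 (0.766 to 2.13), which includes 1. Of the members, the quotient was 3.19 (1.29 to 7.71) at *Nfix*, 2.71 (1.24 to 6.28) at *Nfib* (1.96, 0.866 to 4.69, with single-base tags left out) and 1.12 (0.553 to 2.33) at *Nfia*, and *Nfic* had too few intron tags to give it.

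On the 3′UTR of *Nfix* (chromosome 8 from 87228611 to 87232564) the tags were gathered at its end. The final 500 nt, 12.6% of its length, held 25 of 39 WT tags, 64.1% (47.2 to 78.8), and 95 of 153 *Mbnl1* KO tags, 62.1% (53.9 to 69.8). The 500-nt window was chosen after the positions had been seen. In *Nfic* the final 500 nt held 5 of 19 WT tags, 26.3% (9.15 to 51.2), and 28 of 68 *Mbnl1* KO tags, 41.2% (29.4 to 53.8). *Nfia* had 0 of 17 and 3 of 46 tags there, and *Nfib* had 0 of 11 and 1 of 55. Over the 1814 protein-coding genes with a 3′UTR stretch of at least 3000 nt, the final 500 nt held 12.3% of WT and 12.7% of *Mbnl1* KO tags, about their share of the mean length (11.5%). The intervals of *Nfix* in both tables and of *Nfic* in *Mbnl1* KO muscle lay above these values. They are pooled shares, and how many single 3′UTRs gather tags at their end as *Nfix* does was not counted.

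**Figure D3:**
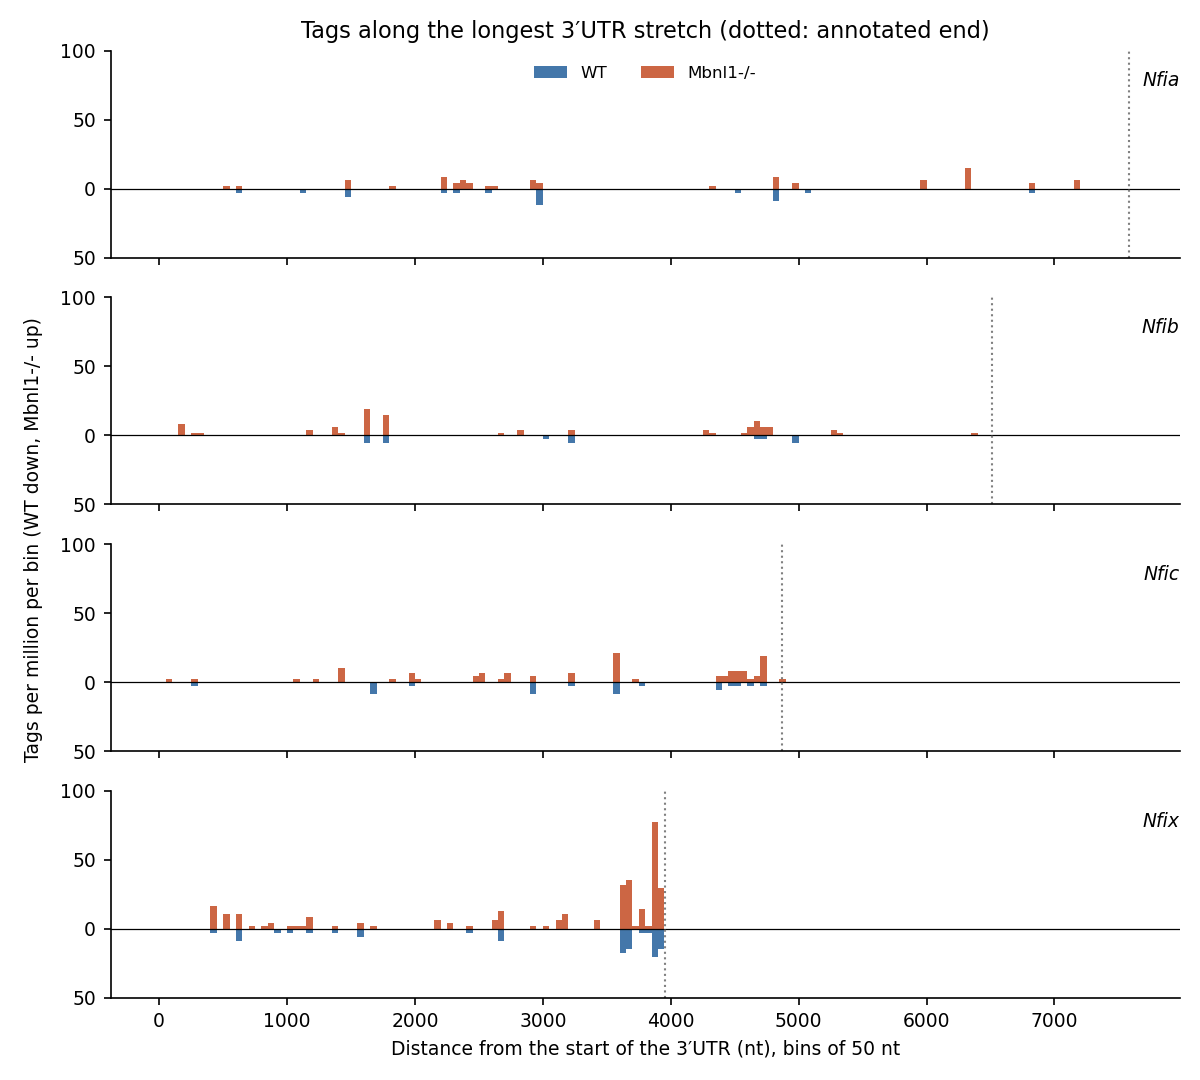
Tags on the CPM scale in bins of 50 nt along the longest annotated 3′UTR stretch of each gene, as distance from its start, with *Mbnl1* KO (Mbnl1-/-) upward and WT downward; the dotted line is the annotated end. On *Nfix* the tallest bins of both tables lie in the final 500 nt, while on *Nfia* and *Nfib* tags are scattered over the stretch.

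Clusters 4, 131 and 235 nt from the annotated end of *Nfix* made up this signal. The end cluster, from 87228615 to 87228715, was made of 12 tags from WT and 51 from *Mbnl1* KO muscle, at a ratio of 3.06 (1.61 to 6.31). The cluster from 87228846 to 87228954 had 11 and 33 tags, 2.16 (1.07 to 4.74), and the smaller cluster between them had 2 and 8. Together they held 25 WT and 92 *Mbnl1* KO tags, with a ratio of 2.65 (1.69 to 4.31), against 2.99 (1.65 to 5.80) for the 3′UTR outside the final 500 nt. The difference between tables was thus of similar size at the end and in the rest of the 3′UTR, and at this depth the values could not be separated.

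**Figure D4:**
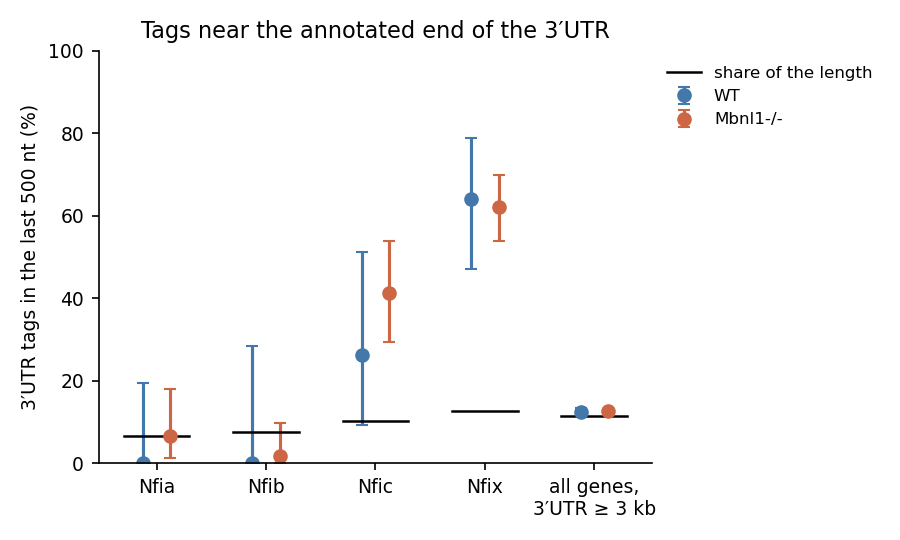
Share of 3′UTR tags that lie in the last 500 nt before the annotated end, in percent, for each NFI gene and for all protein-coding genes with a 3′UTR of at least 3000 nt, with Clopper-Pearson intervals. The black bars show the share of the length that 500 nt makes up; *Nfix* is at 64.1% and 62.1%, all genes are at 12.3% and 12.7%.

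The clusters of the other members were smaller. On *Nfic* the cluster from 80860202 to 80860255, whose summit window holds 3 motifs, had 3 WT and 10 *Mbnl1* KO tags (2.40, interval 0.619 to 13.6). The one from 80859050 to 80859128 had 1 and 11 tags (7.93, 1.15 to 341), of which 2 were single-base tags. *Nfib* carried a cluster from 81940934 to 81940984 with 2 and 9 tags (3.24, 0.671 to 30.9) and one from 81937841 to 81937914 with 2 and 8 (2.88, 0.575 to 27.9). On *Nfia* the middle cluster, from 97782786 to 97782819, had 3 and 4 tags, and the distal cluster, from 97784288 to 97784335 in a CT-rich repeat, had 7 *Mbnl1* KO tags and 0 WT tags. The interval of its ratio began at 1.04, or at 0.709 once single-base tags were removed. Of all 28 clusters with at least 5 pooled tags on the 4 genes, 22 had a ratio above 1 and 5 an interval above 1, beside 72.7% and 13.6% of the 7331 such clusters on all protein-coding genes. Among the named ones only the *Nfix* end cluster kept its interval above 1 with single-base tags left out (2.09, 1.10 to 4.31).

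Of the 28 clusters, 23 lay in 3′UTRs. Of the 22 in 3′UTRs that were not mostly single-base tags, 15 (68.2%) held at least 1 of the 4 motifs in the 30-nt window at the summit. The motifs (TGCT, for example, and the same with C in place of either T) were searched on the RNA strand alone, and overlapping matches were counted. The same share was 70.8% over 3126 3′UTR clusters of all protein-coding genes, and 28.1% over 887818 windows of 30 nt tiled along all their 3′UTRs. Tiled windows of the NFI 3′UTRs held a motif in 38.2% of cases at *Nfix*, 36.4% at *Nfic*, 32.5% at *Nfia* and 25.8% at *Nfib*. NFI clusters were thus close to other 3′UTR clusters in the share with at least 1 motif and above tiled windows, as a description of these windows. At least 2 motifs were held by 18.2% of the NFI summit windows, 28.9% of those of all 3′UTR clusters and 5.13% of the windows tiled along all 3′UTRs.

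Splicing of NFI transcripts was addressed at the annotated alternative exons, taken as internal exons that another transcript of the gene skips. The annotation holds 22 such exon models, and 19 of them had 0 tags in the exon and the 250 nt on each side. The 123-nt exon of *Nfix* (chromosome 8 from 87247627 to 87247749), which 4 transcripts include and 2 skip, had 1 WT tag in the exon and 0 *Mbnl1* KO tags, and its downstream flank had 1 *Mbnl1* KO tag. The exon holds 6 of the motifs and its upstream flank 8. The WT tag, shown because it was the sole tag inside an alternative exon, covered a pair of overlapping motifs:
WT tag in the *Nfix* 123-nt exon (chr8:87247645-87247666, minus strand): acccaccaccCGCTGCCtgtgc
The *Nfix* exon of 148 nt (87240040 to 87240187) had 0 tags in both tables, and a 7-nt exon model nearest the 3′ end (87237604 to 87237610) had 1 *Mbnl1* KO tag upstream. At *Nfia*, 3 *Mbnl1* KO tags with the same position lay upstream of a 29-nt exon model (chromosome 4 from 97732081 to 97732109). These tags of the 7-nt and 29-nt models lay inside the coding exon before the model and were counted as coding exon.

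Over the family the flanks of alternative exons, 8120 nt in all, had 0 WT tags and 1 *Mbnl1* KO tag, and the flanks of 25 other internal coding exons, 8014 nt, had 0 in both. At the density of the introns as a whole, 1.73 WT and 3.48 *Mbnl1* KO tags would fall in these flanks together. The counts are too small to say whether exon flanks differ from other intron, and a count of 0 allows up to 8.73 CPM in WT and 6.30 in *Mbnl1* KO muscle. A difference between the genotypes next to the NFI alternative exons was not detectable at this depth. Coding exons had 3 WT and 10 *Mbnl1* KO tags and 5′UTRs 7 and 13, of which 5 of the WT 5′UTR tags were single-base tags at *Nfic*.

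The tissue and the partners of NFI in muscle were read from the same tables. Tags were frequent on fibre genes, such as *Acta1* with 72 WT and 193 *Mbnl1* KO tags and *Myh4* with 116 and 367, and the fibroblast genes *Col1a1* (123 and 471) and *Col3a1* (14 and 110) had more tags than the fibroblast gene *Pdgfra* (6 and 15), while the heart genes *Myh6* (4 and 3) and *Nppa* (0 and 0) and the blood gene *Hbb-b1* (2 and 2) were low. The endothelial genes *Pecam1* (16 and 18) and *Cdh5* (13 and 55), the satellite cell gene *Pax7* (7 and 11), the leukocyte gene *Ptprc* (9 and 6), the neuronal genes *Rbfox3* (18 and 21) and *Snap25* (2 and 2) and the fat genes *Adipoq* (1 and 12) and *Plin1* (0 and 1) covered a wide range. In which of these cells the NFI tags arose was not tested. A list of 21 genes linked to NFI factors or to the control of muscle genes, chosen with earlier results of these data known, was counted. Of the 13 with at least 20 tags, 10 were past 2-fold higher in *Mbnl1* KO muscle and 0 past 2-fold lower, beside 41.5% and 3.77% of all genes, and with single-base tags left out 7 of 12 were past 2-fold higher, beside 28.9%. The median ratio of these 13 genes was 2.57, and that of the 12 with single-base tags left out was 2.05, beside 1.74 and 1.48 over all genes tested. The filter of 20 tags pools both genotypes, so *Myh7* (4 and 17) and *Smarca4* (4 and 16) passed it mainly through their *Mbnl1* KO tags. With such a filter and a list chosen in this way, these values cannot show whether the list differs from other genes.

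The genes of that list with most tags were *Mef2c*, a MADS-box factor of muscle genes, with 80 WT and 384 *Mbnl1* KO tags (3.46, interval 2.71 to 4.46), and *Sox6*, which represses slow fibre genes, with 65 and 186 (2.06, 1.55 to 2.78). *Ckm*, the muscle creatine kinase gene that Nfix activates, had 32 and 142 tags (3.20, 2.17 to 4.85). *Eno3*, the muscle enolase gene, had 12 and 46 (2.76, 1.44 to 5.73), and *Mef2a* 8 and 47 (4.24, 1.98 to 10.4). *Rock1* (17 and 48, ratio 2.04), *Rock2* (35 and 79, 1.63) and *Rhoa* (14 and 29, 1.49) encode members of the RhoA/ROCK signalling axis. With single-base tags left out, these ratios were 1.36 (0.767 to 2.53) at *Rock1*, 2.91 (1.61 to 5.72) at *Rock2* and 3.44 (1.2 to 13.5) at *Rhoa*. *Ski*, a corepressor, had 16 and 45 tags (2.03), and the coactivator genes *Crebbp* and *Ep300* had ratios of 1.53 and 2.57. After removal of single-base tags *Ski* was at 1.38 (0.767 to 2.62), *Sox6* at 1.56 (1.16 to 2.13) and *Ep300* at 2.05 (0.821 to 6.11). *Myh7*, the slow myosin that Nfix represses, had 4 and 17 tags (3.06, 0.999 to 12.5), and the remodeller gene *Smarca4* had 4 and 16 (2.88, 0.930 to 11.9). Without single-base tags both were below 2-fold, at 1.97 and 1.84. Fewer than 20 tags were found on *Pax7*, *Prkcq*, *Skil*, *Jund*, *Nfatc4*, *Myog*, *Mstn* and *Junb*.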

How the data were processed

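Per the labels and methods, the authors filtered the reads, aligned them to mm9 with BWA (both also in the submitters' processing notes, version not given in the sources used here), discarded sequences under 20 nt and potential PCR duplicates, and merged 3 mice per genotype. The deposited count of a tag gives how many reads were collapsed to make it and is not normalized. Each row is 1 unique tag, and rows were counted. Tags in the tables were 18 to 33 nt long. The methods name a high and a low RNase concentration, and whether each table mixes libraries of both is not given in the sources used here.

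Tags were assigned to the NCBIM37 (mm9) GENCODE vM1 annotation in Python 3.11.15 (pysam 0.24.0, scipy 1.17.1, pandas 2.3.3, numpy 2.4.6), and figures were drawn with matplotlib 3.10.9. The genome was indexed with samtools 1.23.1. Within a gene each tag went to the class that held most of its bases, with ties in the order 3′UTR, 5′UTR, coding exon, other exon, alternative exon flank (250 nt), other intron. A base that codes in any transcript was coding, an alternative exon is an internal exon wholly inside an intron of another transcript, and the 500-nt window at 3′UTR ends was chosen after the positions had been seen. Ratios and shares have 95% Clopper-Pearson intervals, quotients exact conditional intervals, and densities exact Poisson intervals. Genes were called at 2-fold, and no p-value was computed. The counting and intervals were tested on simulated data.

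The genes, lists and rules were chosen with earlier results of these data known. All 4 members, clusters with at least 10 pooled tags and the top cluster of each member, alternative exons with tags and the *Nfix* exon nearest the 3′ end, and list genes with at least 20 tags are named. The alternatives were other scalings, tags kept (no single-base tags, collapsed positions, at least 2 reads, at least 30 nt), midpoint counting and flank width.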

Additional observations from a re-analysis of the deposited data

How the results depend on the processing

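Every result below is a *Mbnl1* KO/WT ratio unless a share is named. Collapsing identical positions, counting by midpoint and scaling without chromosome M and the 100 largest clusters moved no result by more than its interval. Without scaling, the ratio was 2.64 at *Nfia*, 2.52 at *Nfib*, 3.19 at *Nfix*, 2.79 over the family, 3.74 in 3′UTRs and 2.01 in introns. Scaled to the median gene, it was 1.10 at *Nfia*, 1.05 at *Nfib*, 1.23 at *Nfic*, 1.32 at *Nfix*, 1.16 over the family and 1.56 in 3′UTRs, and it reversed to 0.835 in introns. After removal of single-base tags, it was 1.39 at *Nfia*, 1.57 at *Nfix*, 1.54 over the family, 1.92 in 3′UTRs and 1.12 (0.866 to 1.47) in introns. With at least 2 reads, it was 1.37 at *Nfia*, 1.61 at *Nfix*, 1.49 over the family and 1.63 in 3′UTRs, the 3′UTR share was 57.6% in WT and 63.1% in *Mbnl1* KO muscle, and the quotient of 3′UTR and intron ratios was 1.28. With both filters, the values were 1.23 at *Nfia*, 1.21 at *Nfib*, 1.33 at *Nfic*, 1.35 at *Nfix*, 1.28 over the family, 1.41 in 3′UTRs and 1.09 in introns, the shares were 57.3% and 63.1%, and the quotient was 1.29 (0.767 to 2.16). With tags of at least 30 nt, the values were 5.95 at *Nfia*, 3.31 at *Nfib*, 9.26 at *Nfic*, 7.04 at *Nfix*, 5.22 over the family, 7.73 in 3′UTRs and 3.23 in introns; median tag length over the family was 22 nt in WT and 26 nt in *Mbnl1* KO muscle. The last 250 nt of the *Nfix* 3′UTR held 35.9% of WT and 39.2% of *Mbnl1* KO tags. The cause of these shifts was not tested. No ratio could be formed for alternative exon flanks, with 0 WT tags and 1 *Mbnl1* KO tag at flanks of 100, 250 and 500 nt. The alternatives for the quotient and for the *Nfix* window were chosen after seeing the data. No paired analysis was possible because 1 table holds all 3 mice of a genotype, and for the same reason no replicate could be left out. Intervals cover counting error only, and members with few tags, *Nfic* above all, have wide ones.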

Other observations

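Tags on the strand opposite to the NFI genes made up 48 of 245 WT tags over both strands, 19.6% (Clopper-Pearson interval 14.8 to 25.1), and 65 of 615 *Mbnl1* KO tags, 10.6% (8.25 to 13.3). With single-base tags left out these shares were 13.6% and 10.1%. Over all protein-coding genes they were 43.9% and 27.3%. *Nfia* had 26 WT and 16 *Mbnl1* KO tags on the opposite strand, *Nfib* 14 and 35, *Nfix* 8 and 12, and *Nfic* 0 and 2.

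Clusters of A-rich tags lay in far upstream introns of *Nfib*. The one at chr4:82314914-82314957 had 8 WT tags and 1 *Mbnl1* KO tag, all of them single-base tags, and the one at chr4:82271018-82271069 had 7 and 0, of which 6 were single-base tags. These were the 2 intron clusters of the family in which WT was higher. The remaining intron cluster, at chr4:82265558-82265605, had 0 WT and 6 *Mbnl1* KO tags, none of them single-base tags. Whether the tags of these intron clusters came from *Nfib* RNA or from like sequence elsewhere in the genome was not tested.

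Tags with the same position and strand were more frequent in the *Mbnl1* KO table. In the NFI 3′UTRs 77 of 86 WT tags (89.5%) and 221 of 322 *Mbnl1* KO tags (68.6%) had distinct positions, and in introns 90 of 101 (89.1%) and 155 of 203 (76.4%) did. Sequence shared between paralogues touched 4 tags, 3 A-rich tags of *Nfia* and 1 intron tag of *Nfix* whose sequences also occur in *Nfib*.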
